A study of Homo sapiens with 6 samples.

Results

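The beta-globin window was taken as the 150 kb of hg19 chromosome 11 that begin at position 5200000, a stretch that holds the 5 beta-like globin genes HBE1, HBG1, HBG2, HBD and HBB and the locus control region upstream of them. Regions in the list were called in at least 2 of the 3 ChIP replicates. A peak belonged to the window when it shared at least 1 bp with that interval, and 9 of the 28265 SMARCA4 peaks did. The data are SMARCA4 ChIP-seq in K562, an established human line from a chronic myelogenous leukaemia with erythroid features, with 3 SMARCA4 ChIP libraries and 3 input libraries. Crosslinking used disuccinimidyl glutarate (2 mM, 30 min) followed by formaldehyde (1%, 10 min), and chromatin was sheared to 150 to 400 bp. The peak list pools the replicates and gives a start and an end for each region with no height, so values carry no replicate error, no test between samples exists, and the depth behind a region is unknown from the list. The replicates are called technical in one description of the study and biological in another. Motif shares of the 9 peaks are given with 95% Wilson intervals, which cover counting error only. Positions are counted from 1.

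SMARCA4 is an ATPase of the SWI/SNF (BAF) remodelling complexes, which slide and evict nucleosomes. The beta-like globin genes lie in the order in which they are used in development: HBE1 is embryonic, HBG1 and HBG2 are fetal, and HBD and HBB are adult. Their high expression in red cell precursors depends on the locus control region, a series of DNase I hypersensitive sites (HS) upstream of HBE1 at which GATA1, TAL1, NF-E2 and KLF1 bind and from which DNA loops reach the active gene. K562 cells are known to express the embryonic and fetal genes and little HBB. Olfactory receptor genes, which are silent in blood cells, flank the cluster on both sides.

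The peaks fell into a group over the genes and a group over the locus control region. The 5 peaks over the genes lay within 29468 bp, from the body of HBB to the region upstream of HBG2. The 4 peaks over the control region lay within 12855 bp, and 20435 bp without a peak, holding HBE1, separated the groups. Beyond the last peak no region was called for 215885 bp. The map of the window shows this order. All genes of the cluster are on the minus strand, so that upstream of a gene means a higher coordinate.

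**Figure D1:**
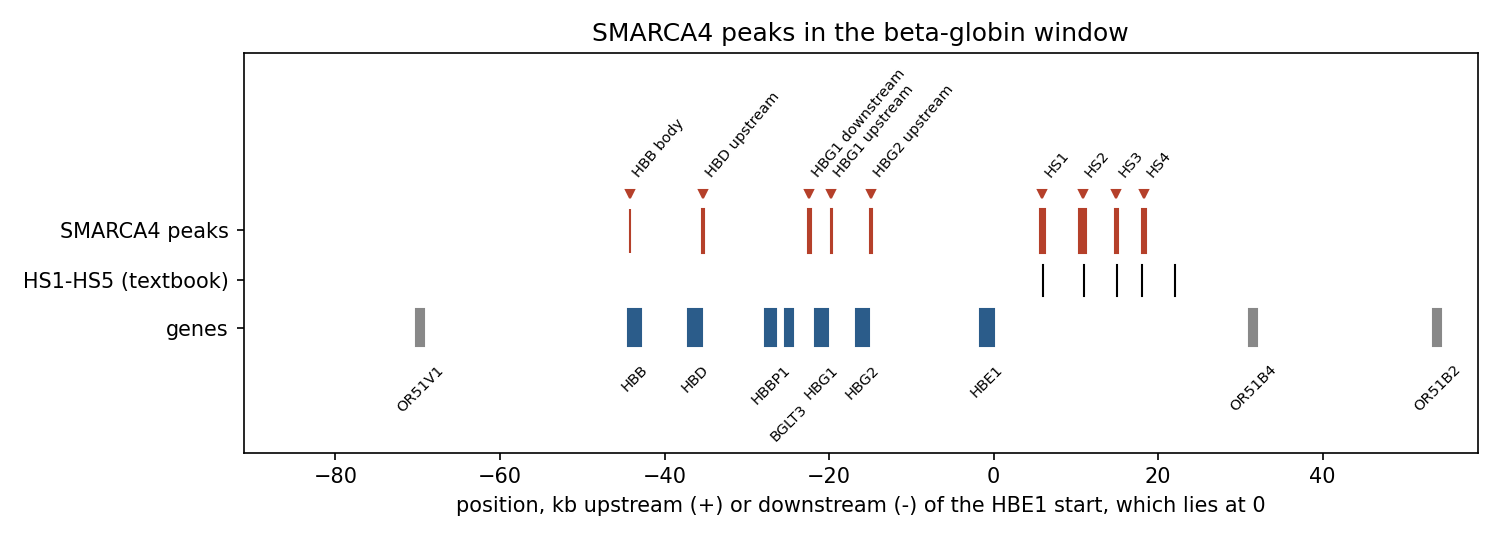
Map of the beta-globin window in kb from the HBE1 start, positive values upstream, with SMARCA4 peaks (red, to scale), textbook distances of HS1 to HS5 (black ticks) and genes (blue, globin cluster with BGLT3; grey, olfactory receptor genes). Peaks lie at HS1 to HS4 and over the HBB to HBG2 stretch, and none lies at HBE1, HS5 or the olfactory receptor genes.

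The sequences below are the central 200 bases of the peaks at HS2, HS3 and HS4 and of the peak upstream of HBD, read 5′ to 3′ on the minus strand of hg19, the strand of the globin genes. They are shown because each of them holds both GATA and AP-1/NF-E2 matches. Capitals mark GATA, AP-1/NF-E2 core, CACCC and CCAAT matches on either strand. The HS2 stretch is chr11:5301905-5302104, HS3 is chr11:5305984-5306183, HS4 is chr11:5309381-5309580, and the HBD stretch is chr11:5255783-5255982.
HS2: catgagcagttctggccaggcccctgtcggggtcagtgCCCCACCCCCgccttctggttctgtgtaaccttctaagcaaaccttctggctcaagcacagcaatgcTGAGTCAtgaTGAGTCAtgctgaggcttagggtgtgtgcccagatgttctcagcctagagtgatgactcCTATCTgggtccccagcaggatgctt
HS3: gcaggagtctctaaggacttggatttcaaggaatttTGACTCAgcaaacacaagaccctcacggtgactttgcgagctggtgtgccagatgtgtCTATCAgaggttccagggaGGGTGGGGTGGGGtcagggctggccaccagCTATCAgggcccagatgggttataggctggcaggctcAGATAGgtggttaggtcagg
HS4: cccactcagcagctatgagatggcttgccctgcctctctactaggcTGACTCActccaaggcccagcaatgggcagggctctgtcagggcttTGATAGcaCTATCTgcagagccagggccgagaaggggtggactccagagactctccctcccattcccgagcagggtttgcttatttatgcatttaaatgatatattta
HBD upstream: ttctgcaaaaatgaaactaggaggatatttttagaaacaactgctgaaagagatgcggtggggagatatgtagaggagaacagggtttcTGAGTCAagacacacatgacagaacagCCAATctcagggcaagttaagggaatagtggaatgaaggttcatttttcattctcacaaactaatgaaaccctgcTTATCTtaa

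A peak centre lay within 1 kb of the textbook distance of 4 of the 5 hypersensitive sites of the control region, and none lay at the site downstream of HBB. The HS1 peak (565 bp) was centred 59 bp from the distance of 6 kb upstream of HBE1. The HS2 peak (chr11:5301600-5302409) was the widest of the window, at 810 bp, and 88.0% of all peaks were at most as wide. HS2 is the site with the strongest classical enhancer activity in transfection assays. The HS3 peak (chr11:5305910-5306256, 347 bp) was centred 92 bp from 15 kb, and the HS4 peak (chr11:5309272-5309688, 417 bp) 305 bp from 18 kb. No peak lay at HS5, a site known to bind CTCF, where the nearest peak edge was 3487 bp away. The same held for 3′HS1, the CTCF-bound site downstream of HBB, where it was 20237 bp away. In the annotation the HS1 to HS4 peaks overlapped no exon. They were intronic to transcripts of the long gene ENSG00000239920 and to non-canonical read-through transcripts of HBE1 and HBG2, which start 235.7 kb upstream of HBE1. Counted from the nearest start of any transcript, they were at least 3922 bp away and thus distal, meaning more than 1 kb from every annotated start.

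Over the genes, SMARCA4 peaks lay close upstream of HBD, HBG1 and HBG2 and not at the main starts of HBE1 or HBB. The HBD peak (chr11:5255746-5256019, 274 bp) reached from 33 to 306 bp upstream of the HBD start. HBD encodes the delta chain of haemoglobin A2, a minor adult form. The HBG1 peak (chr11:5271352-5271570, 219 bp) reached from 265 to 483 bp upstream, and the HBG2 peak (chr11:5276196-5276398, 203 bp) from 185 to 387 bp upstream. These genes encode the gamma chains of fetal haemoglobin. The HBG1 peak was intronic to ENSG00000284931, a read-through of both genes whose start lay 183 bp from the HBG2 peak, and 200 bp of the HBG2 peak lay in an exon of ENSG00000239920. The HBD peak shared 15 bp with an exon of a non-canonical HBD transcript and was otherwise outside exons. Counted from each start, the 2 gamma-globin peaks shared 123 bp. The HBE1 start, that of the embryonic epsilon chain, had its nearest peak edge 5659 bp away, at HS1. The HBB start had its nearest peak edge 1278 bp away, inside the gene.

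The remaining peaks were not at a start of a coding gene. The HBB peak (chr11:5246931-5247023) was the narrowest of the window at 93 bp, with 26 bp in exon 3 and 67 bp in intron 2 of the canonical transcript. It lay 240 bp from the start of ENSG00000285498, an unclassified transcript, and was therefore not counted as distal. A peak of 417 bp (chr11:5268583-5268999) lay 500 bp downstream of the HBG1 end, in an intergenic stretch, and 1807 bp upstream of the start of BGLT3, a noncoding RNA gene. An enhancer is known on this side of HBG1. The pseudogene HBBP1 had no peak within 3816 bp of its start.

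Under the rule of a peak within 1 kb of any annotated start, 4 of the 5 globin genes counted (HBE1, HBG1, HBG2 and HBD). This compares with 48.1% of the 20162 protein-coding genes and 1.20% of the 415 protein-coding olfactory receptor genes. HBE1 counted only through transcripts that start 235.7 kb upstream, and with canonical starts alone the count was 3 of 5 (HBG1, HBG2 and HBD), against 44.2% of protein-coding genes. Within 250 bp of any annotated start it was also 3 of 5, but of HBE1, HBG2 and HBD, against 45.4%. None of the 3 protein-coding olfactory receptor genes of the window had a peak within 1 kb. By their starts, the nearest genes outside the outermost peaks were ENSG00000285498, 240 bp from the HBB peak, and the pseudogene OR51AB1P, 3922 bp from the HS4 peak. Just outside the window, the nearest peaks lay 6570 bp below it (chr11:5193148-5193430) and 175574 bp above it (chr11:5525574-5526063). Just inside, the first and last peaks lay 46931 and 40312 bp from its edges.

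Compared with the genome, the window was rich in peaks. Of 18938 windows of 150 kb, 59.5% had no peak, and 3.36% had at least as many as the 9 of the beta-globin window. With peaks at most 500 bp apart merged, this share was 1.95%. The highest count was 30. Of the 9 peaks 5 were distal, as were 13841 of all 28265 peaks. Of the windows, 3.59% had at least 5 distal peaks. The adjoining window on the HBB side held 6 peaks, that on the control region side 0. These neighbours held 5 and 6 olfactory receptor genes, against 3 in the beta-globin window. Runs of 4 consecutive peaks as compact as HS1 to HS4 were 7.86% of the 28195 runs in the list, a measure added after the values had been seen. Among runs of distal peaks alone, the share was 2.92%.

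**Figure D2:**
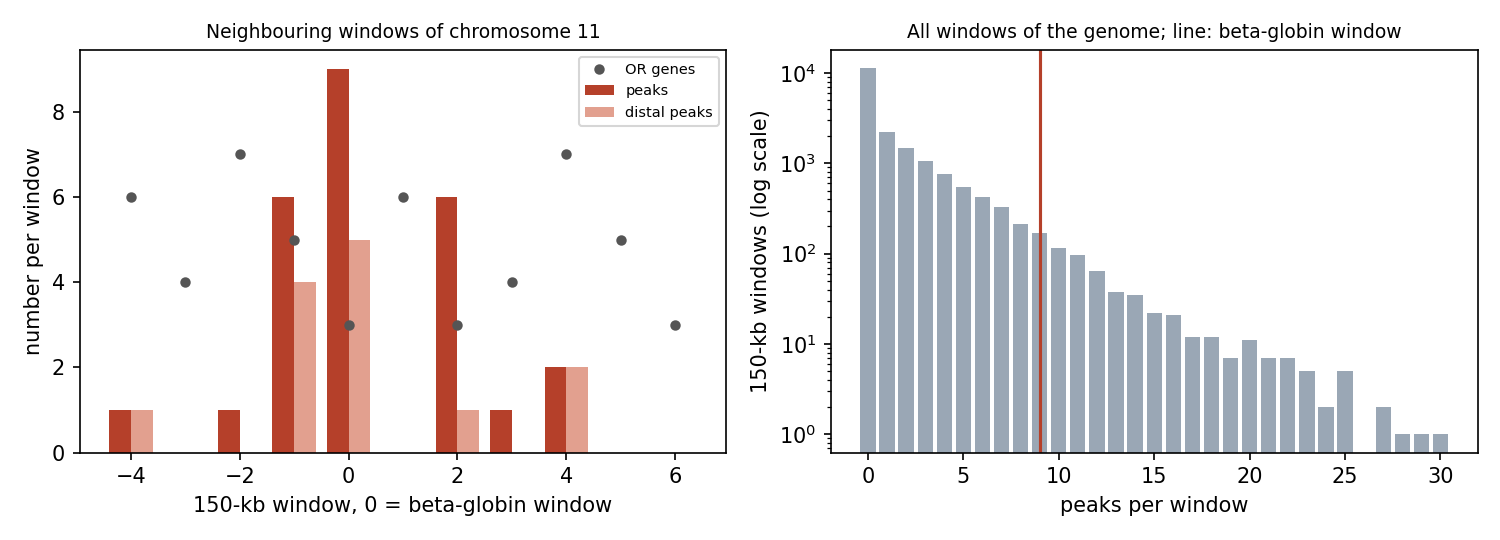
Left, SMARCA4 peaks, distal peaks (bars) and protein-coding olfactory receptor genes (points) in 11 consecutive 150-kb windows of chromosome 11, with the beta-globin window at 0. Right, all 18938 windows by number of peaks on a log scale, with a line at the 9 peaks of the beta-globin window, to the right of most windows.

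The alpha-globin cluster on chromosome 16, which encodes the partner chains of haemoglobin, was set beside it over the same length (chr16:100000-250000). It held 21 peaks, of which 4 were distal, covering 5.32% of the interval. The beta-globin window held 9, of which 5 were distal, covering 2.23%. In the whole list 13841 of 28265 peaks were distal. Of the alpha-like genes, HBZ, HBM and HBQ1 had a peak within 1 kb of an annotated start (3 of 5, against 48.1% of protein-coding genes). HBA2 and HBA1 did not, with nearest peaks 7189 and 3385 bp away. How much of the sequence at these 2 genes occurs in 1 place of the genome was not counted, so reads lost there are unknown. With canonical starts HBQ1 alone remained (1 of 5, against 44.2%).

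The widths of the 2 groups of peaks overlapped. A width here is that of a region combined over replicates, and the widths in each replicate are unknown from the list. The narrowest region of the whole list was 1 bp. The median width was 347 bp in the window (quartiles 219 and 417 bp), against 368 bp for all peaks (quartiles 237 and 586 bp) and 337 bp for distal peaks. The 4 peaks of the control region had a median of 491 bp and the other 5 a median of 219 bp. The peak downstream of HBG1 was as wide as HS4, at 417 bp, and wider than HS3, at 347 bp. HS1 to HS4 made up 63.9% of the 3345 bp that peaks covered in the window.

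**Figure D3:**
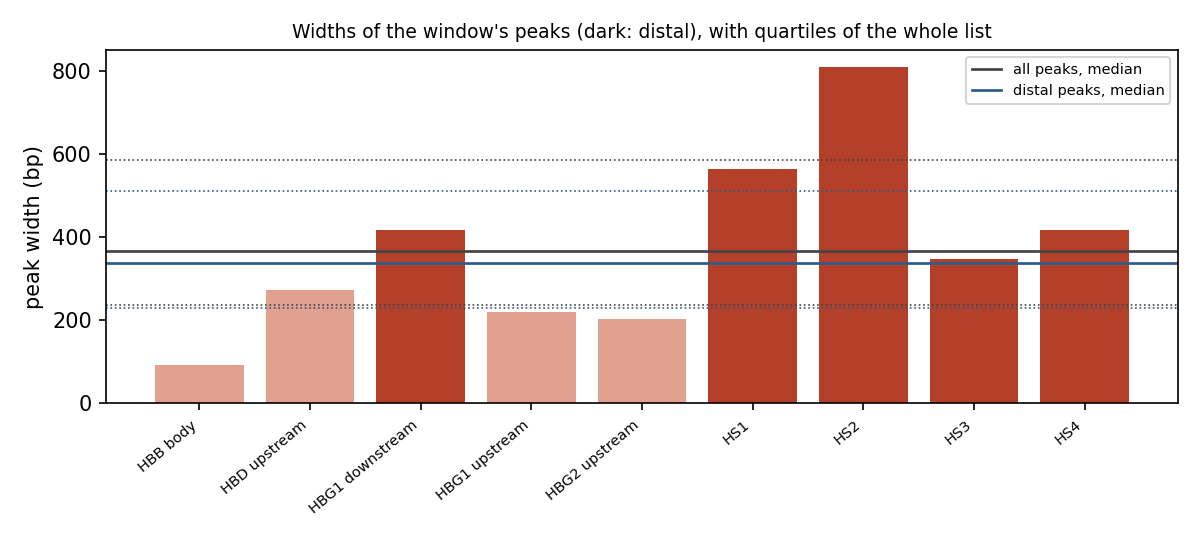
Width in bp of each of the 9 peaks, ordered from HBB to HS4 (dark, distal; light, within 1 kb of an annotated start), with the median (solid) and quartiles (dotted) of all peaks (grey) and of distal peaks (blue). HS2 is the widest at 810 bp and the HBB peak the narrowest at 93 bp.

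The median GC and CpG contents of the peaks were below those of the whole list. Their median GC content was 42.1%, from 38.8% at HBG1 to 52.7% at HS3, against 53.2% for all peaks and 46.1% for distal peaks (quartiles 41.3 and 52.1%). HS3 and the HBB peak, at 48.4%, lay above the median of distal peaks. The 9 peaks held a median of 0.719 CpG per 100 bp, against 2.65 for all peaks and 1.14 for distal peaks. The promoters of the beta-like globin genes are known to lack CpG islands.

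GATA matches were the words AGATAA and AGATAG together with the forms TGATAA and TGATAG, on either strand. They were found in 8 of the 9 peaks (88.9%, interval 56.5 to 98.0%), all but the HBG1 upstream peak. The share was 51.3% of all peaks and 71.3% of distal peaks. The match of the HBG2 upstream peak began at the lower edge of that peak. With 100 bp added on either side, all 9 peaks held a match, and the share of all peaks with such flanks is not given here. HS3 held 4 matches, HS2 held 3, and HS1 and HS4 held 2 each. Of all peaks, 27.9% held at least 2 matches, 13.5% at least 3 and 6.04% at least 4. Per 100 bp, HS1 held 0.354 matches and HS2 0.370, between the 0.224 of all peaks and the 0.381 of distal peaks. HS3 and HS4 lay above the value of distal peaks. The letters of a GATA match are bound by GATA1, the master factor of red cell genes. The interval of the window includes the share of distal peaks.

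AP-1/NF-E2 core matches (TGAGTCA or TGACTCA) were found in 4 of 9 peaks (44.4%, interval 18.9 to 73.3%), those at HS2, HS3, HS4 and HBD, against 17.3% of all peaks and 24.9% of distal peaks. The interval includes the share of distal peaks. HS2 held 2 of them, next to each other in the sequence printed above. The longer NF-E2 form GCTGAGTCA was present at HS2 and HS3, in 2 of 9 peaks (22.2%, interval 6.32 to 54.7%), in 3.58% of all peaks and in 5.12% of distal peaks. NF-E2 is the erythroid and megakaryocytic dimer of NFE2 with a small MAF protein. GATA and AP-1/NF-E2 matches occurred together in the same 4 peaks (44.4%, interval 18.9 to 73.3%), against 11.5% of all peaks and 17.9% of distal peaks. Because 8 of the 9 peaks held a GATA match, this largely restates the AP-1/NF-E2 count and is not a separate result.

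The composite of CTG, 7 or 8 bases and a GATA match, which the complex of GATA1, TAL1, LMO2 and LDB1 is known to bind, was found in 4 of 9 peaks (HBB, HS2, HS3 and HS4; 44.4%, interval 18.9 to 73.3%), in 12.4% of all peaks and in 19.8% of distal peaks. The interval includes the share of distal peaks. CACCC matches (CCNCNCCC), the kind of site that KLF1 binds, were found in 4 of 9 peaks (HS1, HS2, HS3 and the peak downstream of HBG1; 44.4%, with the same interval), against 54.0% of all peaks and 36.2% of distal peaks. In the central 200 bp, an alternative chosen after seeing the data, they were found in 2 of 9 peaks (22.2%, interval 6.32 to 54.7%), against 40.7% of all peaks and 24.8% of distal peaks. CCAAT was present in 4 of 9 (again 44.4%, interval 18.9 to 73.3%), all of them over the genes and none over the control region, against 35.8% of all peaks and 35.8% of distal peaks. The CTCF core was present in 0 of 9 peaks (interval 0 to 29.9%), in 3.15% of all peaks and in 3.81% of distal peaks. G4 motifs (4 stretches of 3 or more G, spaced by 1 to 7 bases) were found in 1 of 9 peaks, at HS3 (11.1%, interval 1.99 to 43.5%), against 23.4% of all peaks and 8.26% of distal peaks. The HS3 G4 match overlaps the CACCC matches printed in capitals above. A match is a description of the sequence and does not show that a factor is bound.

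**Figure D4:**
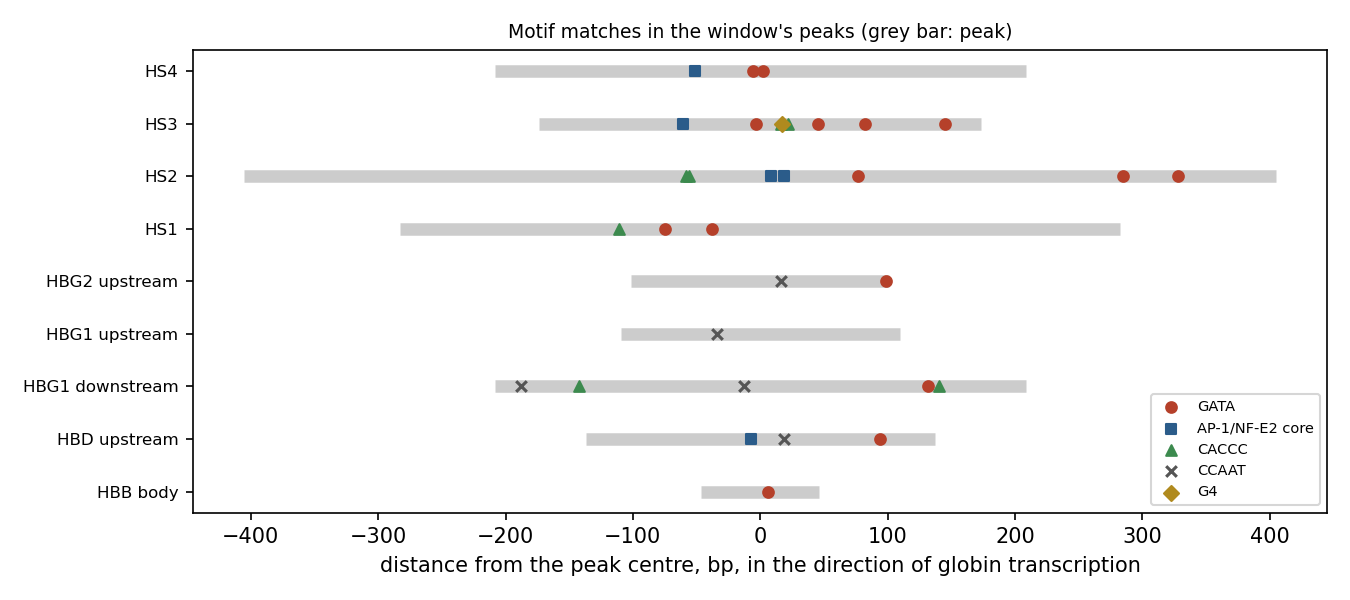
Motif matches in each of the 9 peaks by distance in bp from the peak centre, in the direction of globin transcription, with each peak drawn to scale as a grey bar. GATA and AP-1/NF-E2 core matches occur together at HS2, HS3, HS4 and HBD, and CCAAT matches occur in 4 of the 5 peaks over the genes.

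HBG1 and HBG2 are near-identical copies, which bears on where short reads can be placed. In the 300 bases around each start (250 upstream and 50 downstream), 34.0% of 75-base sequences occurred in 1 place of the genome by exact match, for HBG1 and for HBG2 alike, against 100% for HBD, HBB and HBE1. In the first 250 bases upstream of the start, 246 were identical between the copies, with 0 mismatches and the rest in gaps. From 250 to 499 bp upstream 91.7% of positions of the alignment were identical, with gaps counted as positions, and all 75-base sequences that began there occurred in 1 place. Sequences that occurred in 2 places covered the starts and reached 222 bp upstream. The HBG1 peak began 265 bp upstream, beyond that stretch, and the HBG2 peak 185 bp upstream, within it, although all sequences beginning in either peak occurred in 1 place. The authors removed reads with low mapping quality, and how far this shaped the gamma-globin peaks was not tested. For the other 7 peaks, at least 99.1% of 75-base sequences occurred in 1 place.

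**Figure D5:**
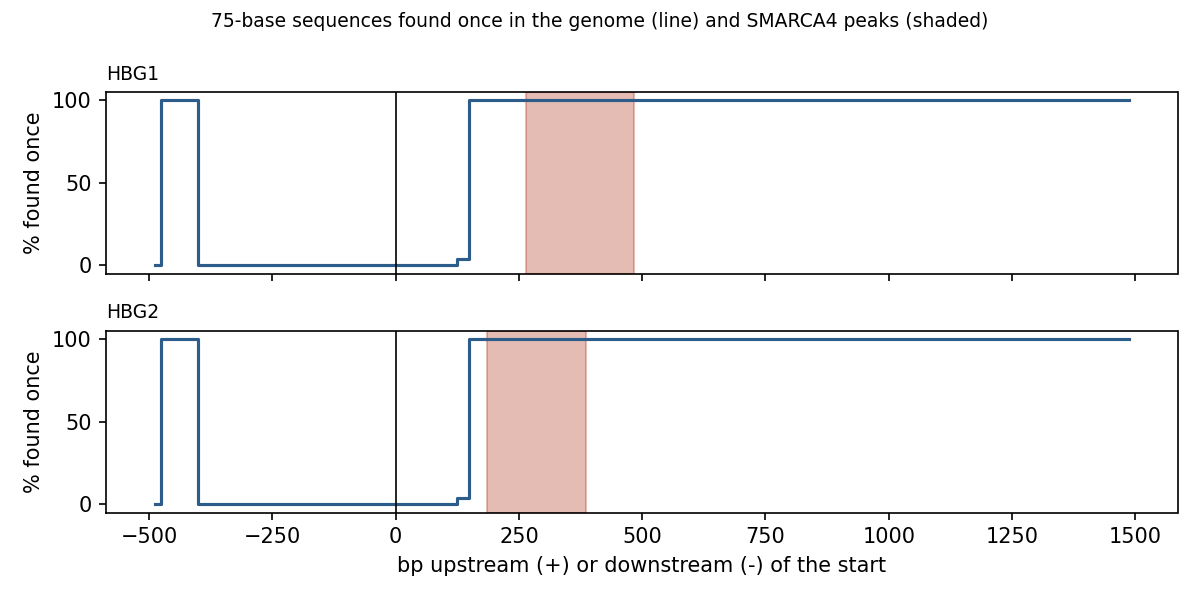
Percent of 75-base sequences that occur in 1 place of the genome, in bins of 25 bp by where the sequence begins, from 500 bp downstream to 1500 bp upstream of the HBG1 and HBG2 starts (line at 0), with the SMARCA4 peaks shaded. The line is at 0 over the starts and at 100% from 150 bp upstream, and both peaks lie upstream of the starts.

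Of 10 genes for proteins known to act at the beta-globin locus, 9 had a peak within 1 kb of a start, against 48.1% of all protein-coding genes. These were GATA1, TAL1, LDB1, LMO2, KLF1, NFE2, ZBTB7A, MYB and GFI1B, which include the activators named above and the fetal globin repressor ZBTB7A. BCL11A, the other main repressor of fetal globin, had its nearest peak 326541 bp from a start. LMO2 counted at 941 bp, close to the limit of 1 kb. The 48.1% covers all protein-coding genes, whether or not K562 expresses them. The line was checked by markers in the same way. Of the 7 erythroid markers, HBE1, HBG1 and HBG2 are genes of the window and are described above. A peak lay within 1 kb of a start of 4 of the other 4 (GATA1, TAL1, KLF1 and HBZ), against 48.1% of all protein-coding genes, and of 3 with canonical starts, against 44.2%. All 4 were already counted above as locus regulators or alpha-like globins. A peak lay within 1 kb of a start for 2 of 11 genes of T cells, B cells, hepatocytes and neutrophils (PAX5 and ELANE; 0 with canonical starts). A peak at a start is occupancy and not expression.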

How the data were processed

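SMARCA4 ChIP-seq of K562 cells was analysed from 1 deposited list of regions for 3 ChIP and 3 input libraries, read single-end at 75 bases. Adapter trimming by the authors used cutadapt and alignment to hg19 used BWA. They removed duplicates (Picard, SAMtools) and reads of low mapping quality, called peaks in each replicate against input with MACS2, and kept with bedtools the regions found in at least 2 of 3 replicates. Deposited values are chromosome, start and end in bp, with no height. Repeated sequence loses reads in such a pipeline, and a region in 1 replicate is lost.

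Regions were compared with the hg19 sequence and GENCODE 44 mapped to the same build, with Python 3.11.15, numpy 2.4.6, numba 0.67.0, pysam 0.24.0, biopython 1.88 and matplotlib 3.10.9. Windows of 150 kb with under 50% gap bases on chromosomes 1 to 22 and X gave the background. Copies of 75-base sequences were counted by exact match on either strand. Hypersensitive sites were placed by textbook distances. Interval, motif and copy counts were tested on simulated data. Named were the globin genes, genes with a start near a peak of the window, the nearest genes outside, alpha-like globins, locus regulators and markers. The members and lists were chosen with earlier results of these data known. 1 marker gene and some sequences of the original plan are not reported here. Repeat content and signal tracks were not analysed here.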

Additional observations from a re-analysis of the deposited data

How the results depend on the processing

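Over 12 results, 27 alternatives were run, of which 4 were chosen after seeing the data. The 9 peaks of the window became 8 with peaks of at least 200 bp, which drops the HBB peak, and 11 with the window moved 25 kb down, and stayed 9 under the other 4 alternatives. The share of windows with at least as many peaks was 2.99% with peaks of at least 200 bp and 1.95% with peaks at most 500 bp apart merged. The share with at least as many distal peaks was 3.24% counted from coding transcripts alone (6 distal peaks in the window) and 4.86% at 2 kb from any start (4 distal peaks). With 50-base sequences, 25.7% of the HBG1 and HBG2 promoter sequences occurred in 1 place. The share of compact runs of 4 peaks was 2.92% for distal peaks alone, chosen after seeing the data. The cause of these shifts was not tested. The globin genes with a peak at the start were 3 of 5 with canonical starts (HBG1, HBG2 and HBD) and 3 of 5 within 250 bp (HBE1, HBG2 and HBD), against 4. CACCC matches were found in 2 peaks in the central 200 bp, against 4, also chosen after seeing the data. Hypersensitive sites with a peak (4), AP-1/NF-E2 matches (4) and G4 matches (1) had the same count under each alternative run, and GATA matches ranged from 6 to 9 peaks. The 6 are those in the central 200 bp (66.7%, interval 35.4 to 87.9%), an interval that includes both the 40.2% of all peaks and the 62.4% of distal peaks. No paired analysis was possible because the list pools the replicates and no result comes from a test. The lack of heights, and of a list per replicate, limits what can be said of 9 regions: a stretch with no peak is one not called in enough replicates, not one without SMARCA4.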
